A study of Mus musculus with 6 samples.

Results

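The genes described here belong to the solute carrier families that include the amino acid transporters, SLC1, SLC3, SLC6, SLC7, SLC36, SLC38 and SLC43, and they include carriers of neurotransmitters, taurine and creatine and 2 transcripts of the opposite strand. They were chosen by name: every gene whose symbol begins with Slc1a, Slc3a, Slc6a, Slc7a, Slc36a, Slc38a or Slc43a was taken, wherever a probe set of the array named that gene alone. This gave 58 of the 17097 genes named on the array, measured by 102 probe sets, and for each gene the probe set with the highest mean signal over the 6 arrays was used. The rule used symbols and mean signals, and no difference between arrays.

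Cells cannot build proteins, nucleotides or glutathione without a supply of amino acids, and the carriers of the SLC families bring them across the plasma membrane. The SLC7 light chains exchange 1 amino acid for another and reach the membrane only when bound to a heavy chain of the SLC3 family, whereas the SLC38 carriers draw glutamine and alanine inward with sodium, so that glutamine taken up by one family can be traded for leucine by the other. The SLC1 family carries glutamate and small neutral amino acids. The SLC6 family carries neurotransmitters, taurine, creatine and neutral amino acids, and the SLC36 family couples transport to protons. In the SLC43 family, *Slc43a1* and *Slc43a2* encode carriers that move large neutral amino acids by facilitated diffusion. In pluripotent cells, amino acid supply is known to feed histone and DNA methylation through methionine and threonine metabolism, and amino acid shortage raises several carriers through the transcription factor ATF4.

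The study asked how the germ cell and pluripotency regulator PRDM14 acts on mouse epiblast-like cells (EpiLCs), which are made from embryonic stem cells (ESCs) with activin A and bFGF, and whether the DNA demethylases TET1 and TET2 take part. Total RNA was measured on 6 expression arrays, 1 per condition: ESCs; EpiLCs (d2), at day 2 of induction; EpiLCs (d4), kept to day 4 without PRDM14; EpiLCs + PRDM14; and EpiLCs (d2) and EpiLCs + PRDM14 with shRNAs against *Tet1* and *Tet2*, called the arrays labelled KD. The EpiLC arrays without KD carry a scramble shRNA in their labels and the ESC array names none. All cells derive from the ESC line E14tg2a, and in the study's methods a doxycycline-switched FLAG-tagged *Prdm14* was inserted by piggyBac transposition and single colonies were picked, so that each line may be 1 clone. The day of the + PRDM14 arrays is not in their labels, and there is no KD array at day 4 without PRDM14.

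The medium differed along with the cell state. The labels' growth protocol gives ESCs serum, LIF, glutamine and added nonessential amino acids, while the study's methods also describe ESC culture without serum, in N2B27 with kinase inhibitors and LIF, ahead of induction. Which of these the ESC array had is not stated in the sources used here. EpiLCs (d2) were in N2B27 with activin A, bFGF and a little serum replacement, and the later EpiLCs in GMEM with more serum replacement. Between ESCs, EpiLCs (d2) and the later EpiLCs, medium, day and cell state cannot be told apart. Nor can fewer cells of a type and less RNA per cell in any of these arrays. In the study's methods, cells were replated after day 2 in the later medium, either with doxycycline or without it. EpiLCs (d4) thus share the medium of EpiLCs + PRDM14, and EpiLCs (d2) do not. Every comparison of PRDM14 with a day 2 array, the KD pair included, therefore also spans a change of medium. With 1 array per condition there is no replicate spread and no test, and a difference describes 2 arrays. In what follows, day 2, day 4 and with PRDM14 refer to the scramble EpiLC arrays unless KD is named, and the KD values are given in the order day 2, then PRDM14. All values are log2 signals as deposited, where a difference of 1 is a doubling. A difference of at least 1.5-fold (0.58 on the log2 scale) was counted, and the share of all named genes beyond the same fold is given as background. Signals of different probe sets do not compare amounts of RNA.

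In ESCs against EpiLCs (d2), 2.7% of named genes were higher and 2.32% lower by at least 1.5-fold. Markers followed the labels of cell state: 9 of 9 naive pluripotency genes were higher and 5 of 7 primed epiblast genes lower in ESCs than in EpiLCs (d2). In EpiLCs + PRDM14 against EpiLCs (d2), where 2.73% of named genes were higher and 1.91% lower, the counts were 9 of 9 and 6 of 7. Over the fibroblast, endoderm, trophoblast and neural lists (6, 6, 6 and 5 genes), 1 fibroblast gene was lower (*Dcn*, -0.62) and 1 trophoblast gene (*Krt7*, 0.68) and 1 neural gene (*Tubb3*, 2.31) were higher with PRDM14. Of these lists, *Tubb3* alone passed in ESCs, at 2.11. At day 4 without PRDM14, 1 trophoblast gene and 1 neural gene were also higher than at day 2, by 1.19 and 1.00. Against EpiLCs (d4), no trophoblast gene and 1 neural gene were higher with PRDM14, the latter by 1.31. The *Prdm14* probe set read 4.95 in EpiLCs + PRDM14 and 5.04 in EpiLCs (d2), so this probe set does not check the label PRDM14. *Tet2* read 8.54 in EpiLCs (d2) and 8.49 in the KD array at day 2. After alignment of the array medians, *Tet2* was 0.17 higher in the KD array at day 2. With PRDM14 it was 0.54 lower in the KD array than in the scramble array. *Tet1* was not analysed here, so the label KD is used as given. The array medians were 5.28 to 5.29 in the ESC and scramble arrays and 5.07 in the KD arrays, which may have been normalised separately. Differences between a KD and a scramble array were therefore taken after shifting each array to the common median. At day 2, 5 of 9 naive pluripotency genes were then higher in the KD array, with a list median of 0.70. There 1 of 7 primed epiblast genes was lower, beside 3.3% of all named genes higher and 2.25% lower. The KD pair thus started from other marker levels than the scramble pair. With PRDM14, 7 of 9 naive genes were higher and 6 of 7 primed genes lower within the KD pair.

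Of the 58 transporter genes, 24 (41.4%) had a mean signal above the median of all named genes, 5.96. The SLC38 carriers were mostly well detected, with 8 of 9 genes above that median, against 3 of 5 cationic carriers of the SLC7 family, 4 of 10 SLC7 light chains, 6 of 18 SLC6 carriers, 2 of 3 SLC43 carriers and 1 of 2 SLC3 heavy chains. None of the 6 SLC1 carriers, of the 3 SLC36 carriers or of the 2 opposite-strand transcripts (*Slc6a19os* and *Slc36a1os*) lay above it. Near the foot of the scale a fall in RNA does not lower the signal further, which limits what the dim probe sets can show.

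Over the 6 pairs of the ESC and scramble arrays, 7 of 58 transporter genes (12.1%) differed by at least 1.5-fold in some pair, against 11.9% of all named genes. With the pair of KD arrays included, the count was 8 of 58 (13.8%), against 13.1%. Those genes were *Slc6a15*, *Slc38a2*, *Slc7a7*, *Slc7a1*, *Slc38a1*, *Slc7a3*, *Slc6a8* and *Slc1a1*. The share of the transporter genes was thus close to the background. The other 50 genes had a median range of 0.13 over the ESC and scramble arrays, and their greatest difference in any of these pairs was 0.56, for *Slc43a3*.

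**Figure D1:**
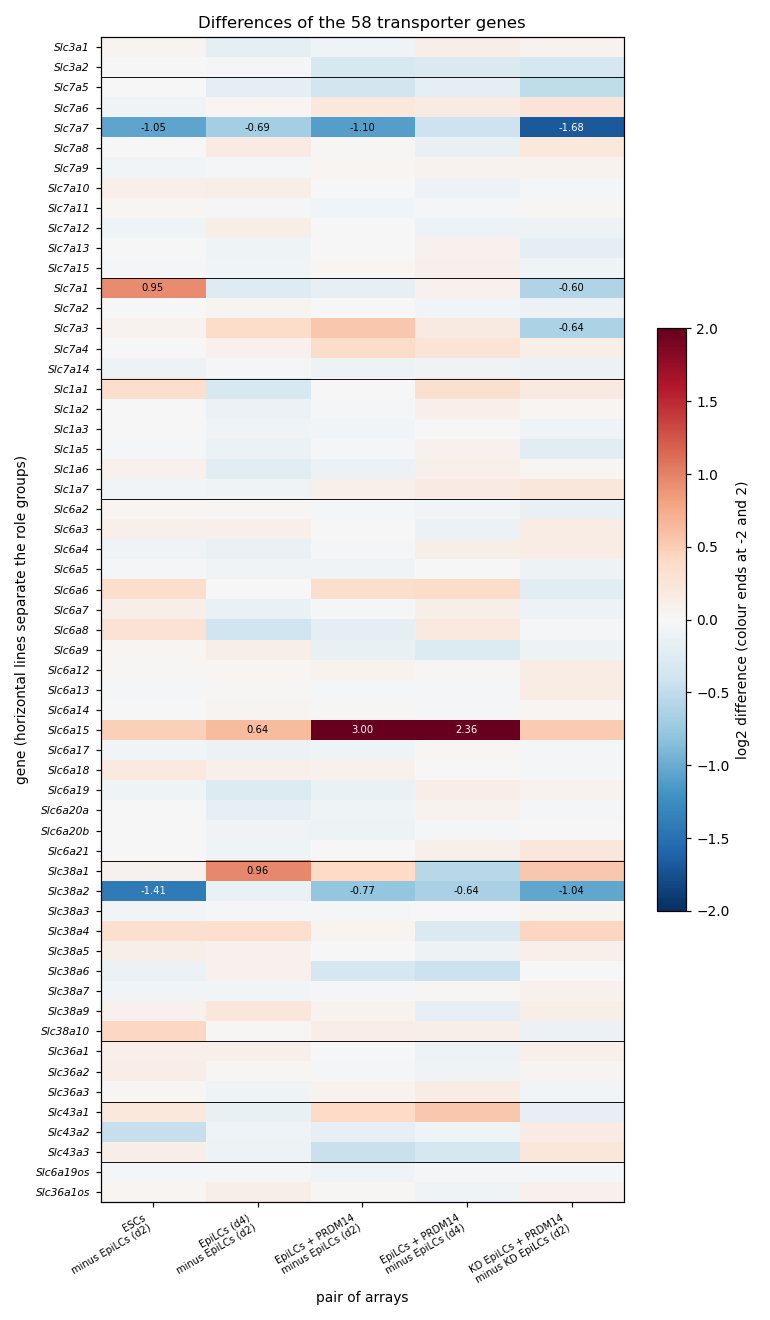
Log2 differences of the 58 transporter genes (rows, grouped by role) in 5 pairs of arrays (columns), with red for higher and blue for lower in the first-named array. Values are written where the difference was at least 1.5-fold; these lie in *Slc7a7*, *Slc7a1*, *Slc7a3*, *Slc6a15*, *Slc38a1* and *Slc38a2*, and the remaining rows hold none in these 5 pairs.

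The neutral amino acid carrier *Slc6a15*, best known as a sodium-coupled carrier of leucine and proline in neurons, gave the widest spread of the set. Its signal was 5.23 in the ESC array, 4.76 at day 2, 5.39 at day 4, 7.75 with PRDM14, and 4.18 and 4.71 in the KD arrays. EpiLCs + PRDM14 stood alone, and the other 5 arrays, ESCs included, read at or below 5.39. The difference was 3.0 against EpiLCs (d2) and 2.36 against EpiLCs (d4). Of the 17097 named genes, 2 were further above EpiLCs (d2) and 4 further above EpiLCs (d4). ESCs minus EpiLCs + PRDM14 came to -2.52, so the level with PRDM14 was not that of ESCs. A single probe set measures this gene, so no second one could be set beside it.

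The SLC38 carrier *Slc38a2*, the amino acid-regulated sodium-coupled carrier of glutamine, alanine and other small neutral amino acids, ran the other way. It read 9.10 in the ESC array, 10.51 at day 2, 10.38 at day 4, 9.74 with PRDM14, and 10.04 and 9.0 in the KD arrays. The EpiLC arrays without PRDM14 were high, ESCs low, and the arrays with PRDM14 lower than their day 2 counterparts. A second probe set of *Slc38a2* read 6.85 in the ESC array, 8.17 at day 2, 7.99 at day 4, 7.87 with PRDM14, and 7.40 and 6.89 in the KD arrays. It was lower in ESCs as well, with a difference of -1.32, but was 0.30 lower in EpiLCs + PRDM14 than in EpiLCs (d2). Another, with signals of 5.49 to 5.81, differed by less than 1.5-fold in every pair.

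The light chain *Slc7a7*, which pairs with the heavy chain encoded by *Slc3a2* to exchange cationic for neutral amino acids, followed a similar course. Its only probe set read 6.13 in the ESC array, 7.18 at day 2, 6.49 at day 4, 6.08 with PRDM14, and 7.18 and 5.51 in the KD arrays. The day 2 arrays were highest with either shRNA. ESCs and EpiLCs + PRDM14 were nearly level, 0.05 apart, and EpiLCs (d4) lay between them and EpiLCs (d2).

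The cationic carrier *Slc7a1*, the main importer of arginine and lysine in many cell types, was highest in ESCs. It read 9.65 in the ESC array, 8.70 at day 2, 8.44 at day 4, 8.54 with PRDM14, and 8.56 and 7.96 in the KD arrays. No EpiLC array came near the ESC value. A second probe set read 8.86 in ESCs and 7.93 in EpiLCs (d2), and another, near 4.5 in every array, differed by 0.08 between them.

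**Figure D2:**
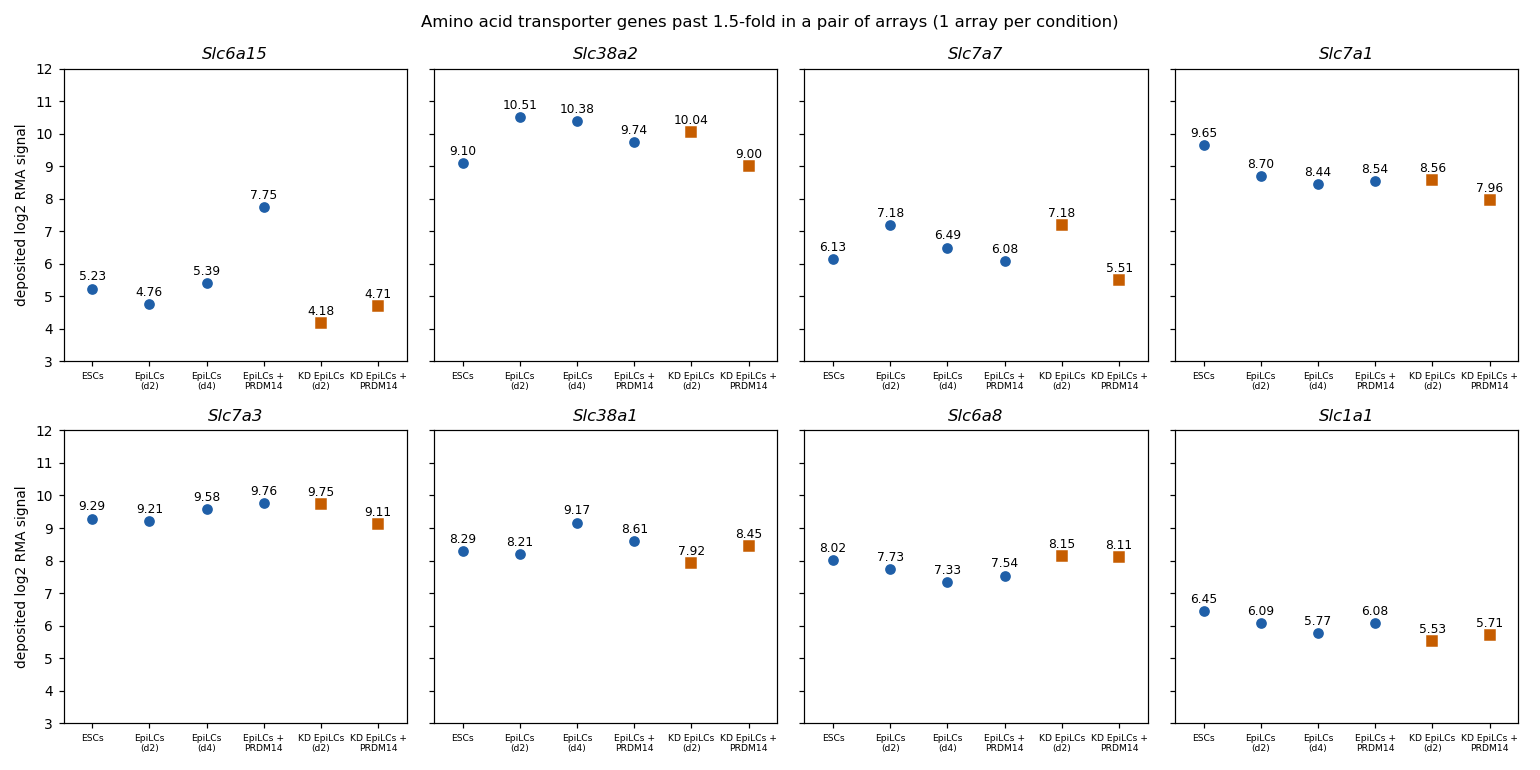
Deposited log2 signal (vertical axis) of the 8 transporter genes that differed by at least 1.5-fold in some pair of arrays on the same scale, in each of the 6 arrays (horizontal axis); blue circles are ESC and scramble arrays and orange squares KD arrays, whose median was 5.07 against 5.28 to 5.29. *Slc6a15* is high in EpiLCs + PRDM14 alone (7.75), *Slc7a1* is highest in ESCs (9.65), and *Slc38a2* (10.51) and *Slc7a7* (7.18) are highest in EpiLCs (d2) among the circles.

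The start regions of 3 of these genes are shown because they moved between the same arrays, *Slc38a2* and *Slc7a7* downward and *Slc7a1* upward in ESCs. The sequences are the 250 bases before a RefSeq transcription start on GRCm38.p6, 5′ to 3′ on the minus strand that carries each gene, with CpG pairs, the sites of DNA methylation that TET enzymes act on, in capitals. For *Slc7a7* and *Slc7a1* the start farthest upstream was taken.
*Slc38a2*, chr15:96699729-96699978: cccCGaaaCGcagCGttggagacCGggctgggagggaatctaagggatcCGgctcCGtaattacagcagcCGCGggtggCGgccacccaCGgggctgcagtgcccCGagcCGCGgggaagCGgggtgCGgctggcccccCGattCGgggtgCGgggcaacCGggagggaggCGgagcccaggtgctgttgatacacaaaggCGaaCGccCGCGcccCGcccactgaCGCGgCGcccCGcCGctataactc
*Slc7a1*, chr5:148399905-148400154: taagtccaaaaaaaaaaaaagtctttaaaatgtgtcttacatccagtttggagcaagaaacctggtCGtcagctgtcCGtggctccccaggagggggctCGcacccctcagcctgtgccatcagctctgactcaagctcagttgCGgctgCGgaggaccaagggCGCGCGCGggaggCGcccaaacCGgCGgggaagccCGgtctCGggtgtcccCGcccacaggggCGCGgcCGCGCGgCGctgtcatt
*Slc7a7*, chr14:54417945-54418194: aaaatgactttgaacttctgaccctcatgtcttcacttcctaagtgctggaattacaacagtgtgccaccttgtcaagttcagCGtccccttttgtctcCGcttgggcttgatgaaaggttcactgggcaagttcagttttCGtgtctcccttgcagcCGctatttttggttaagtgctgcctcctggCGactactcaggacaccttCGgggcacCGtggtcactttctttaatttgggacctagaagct
The *Slc38a2* stretch held 30 CpG pairs, the *Slc7a1* stretch 21 and the *Slc7a7* stretch 7. Over each gene's richest window (250 bases before to 50 after a start), the 41 transporter genes with a window had a median of 13 CpG pairs, against 8 over 27025 genes. By that longer measure *Slc38a2* held 41, *Slc7a1* 27 and *Slc7a7* 13.

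In these windows 3 motifs were searched on both strands: TGATGNAAN, the core of the composite element that C/EBP and ATF factors bind, GTCTCTAA, the core of the PRDM14 motif, and ATTTGCAT, the octamer bound by POU factors. Of 32851 windows of all genes, 3.95%, 0.855% and 1.74% held them, and of 62 windows of the transporter genes 4, 3 and 2 did. The transporter genes with a match were *Slc7a7*, *Slc7a11* and *Slc6a21* for the first, *Slc7a7* and *Slc38a5* for the second, and *Slc7a11* and *Slc6a12* for the third. The octamer match of *Slc7a11* overlaps one of its composite matches. The 17 transporter genes without a window were not searched, among them *Slc6a15*, *Slc38a1*, *Slc7a3* and *Slc6a8*. Of the genes that moved, *Slc38a2*, *Slc7a1*, *Slc1a1* and *Slc7a7* were searched, and *Slc7a7* alone held matches. It has more start windows than the other searched genes that moved, so more sequence was searched for it. Its windows partly overlap, and its PRDM14 match is the same site found in overlapping windows. A composite and a PRDM14 site of *Slc7a7* are given with 30 bases each, the match in capitals, on GRCm38.p6 and the minus strand. The first crosses the farthest upstream start and the second lies just after another start. A further composite match of *Slc7a7*, TGATGAAAG at position -141 from the farthest upstream start, is not printed as a site.
*Slc7a7*, composite element: acctagaagcTGATGCAACagcttccccga
*Slc7a7*, PRDM14 motif: cagaggacacGTCTCTAAgggtatccgcag
These matches describe the letters only.

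For ESCs against EpiLCs (d2), the question was which carriers changed as ESCs became EpiLCs. Of 58 transporter genes, 1 was higher in ESCs, *Slc7a1* by 0.95, and 2 were lower, *Slc38a2* by a difference of -1.41 and *Slc7a7* by -1.05. The background was the 2.7% and 2.32% given above. The median difference over the 58 genes was 0.00, against 0.01 over all named genes, and 46 of the 58 differed by less than 1.1-fold. Of the other well-detected genes, *Slc38a10* was 0.41 and *Slc38a4* 0.33 higher in ESCs, and *Slc43a2*, a carrier of branched-chain and aromatic amino acids, read -0.45. The second probe set of *Slc38a4* passed the fold, at 0.75, while its brightest did not, and so did a dim second probe set of the glutamate carrier *Slc1a1*, at 0.72.

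Between day 2 and day 4 without PRDM14, 2.17% of all named genes were higher and 1.13% lower at day 4. The transporter genes gave 2 higher and 1 lower. *Slc38a1*, a glutamine carrier related to *Slc38a2*, read 8.29 in the ESC array, 8.21 at day 2, 9.17 at day 4, 8.61 with PRDM14, and 7.92 and 8.45 in the KD arrays. EpiLCs (d4) were highest, by 0.96 over EpiLCs (d2). Its second probe set differed by 0.03 in that pair, so the probe sets of *Slc38a1* did not give the same answer. *Slc6a15* was 0.64 higher at day 4 and *Slc7a7* gave -0.69. *Slc38a2*, by contrast, stayed within -0.13 of its day 2 value.

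With PRDM14, set against EpiLCs (d2), 1 of 58 transporter genes was higher, *Slc6a15*, and 2 were lower, *Slc7a7* by a difference of -1.10 and *Slc38a2* by -0.77, beside the 2.73% and 1.91% of all named genes given above. The same day 2 array serves all 3 comparisons with EpiLCs (d2), so their values are not independent of each other. Against EpiLCs (d4), where 1.88% of all named genes were higher and 2.15% lower, *Slc6a15* was higher and *Slc38a2* lower, by -0.64. With the mean of its probe sets *Slc38a2* fell inside the limit, at -0.35 against day 2 and -0.28 against day 4. *Slc7a7* read -0.41 against EpiLCs (d4) and thus fell short of the fold against the later control. Just under the fold against EpiLCs (d2) stood *Slc7a3*, a cationic carrier, at 0.54, *Slc43a3* at -0.45, *Slc38a1* at 0.40 and *Slc43a1* at 0.39.

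Set against each other, ESCs and EpiLCs + PRDM14 differed by at least 1.5-fold in 3 of 58 transporter genes, beside 2.27% of all named genes higher and 2.87% lower in ESCs. *Slc7a1* was 1.12 higher in ESCs, while *Slc38a2* was lower by -0.64 and *Slc6a15* by -2.52. For *Slc7a1*, the value in EpiLCs + PRDM14 was 0.17 below that in EpiLCs (d2), so PRDM14 did not go with the ESC level of this carrier. For *Slc38a2* the value with PRDM14 lay between EpiLCs (d2) and ESCs.

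ESCs against EpiLCs (d4) was a comparison added after the data were seen, beside 3.47% of all named genes higher and 4.11% lower. Of 58 transporter genes 3 were higher in ESCs, *Slc7a1* by 1.21, *Slc6a8* by 0.68 and *Slc1a1* by 0.68, and 2 were lower, *Slc38a2* by -1.28 and *Slc38a1* by -0.87. The second probe set of *Slc6a8* read 5.80 and 5.66 in these arrays, and the mean of the probe sets put *Slc6a8* at 0.41 and *Slc38a1* at -0.42, inside the limit.

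Between the KD arrays, PRDM14 against day 2, no transporter gene was higher and 4 were lower by at least 1.5-fold, beside 2.13% of all named genes higher and 2.52% lower. *Slc7a7* differed by -1.68, *Slc38a2* by -1.04, *Slc7a3* by -0.64 and *Slc7a1* by -0.60. With quantile normalisation of the 6 arrays 2 of the calls were lost, *Slc7a3* at -0.58 and *Slc7a1* at -0.57, and the mean of the probe sets put *Slc7a1* at -0.42 and *Slc38a2* at -0.52. A second probe set gave -0.77 for *Slc7a1* and -0.50 for *Slc38a2*. For comparison in the scramble pair, *Slc7a1* read -0.17 and *Slc7a3* 0.54. *Slc7a3*, which imports arginine and lysine and is known from early embryonic cells, read 9.29 in the ESC array, 9.21 at day 2, 9.58 at day 4, 9.76 with PRDM14, and 9.75 and 9.11 in the KD arrays. The array labelled KD was thus high at day 2 and low with PRDM14, the reverse of the scramble arrays.

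*Slc6a15* differed by 0.52 in the KD pair, against 3.0 in the scramble pair. The difference of these differences, -2.47, was the lowest of all 17097 named genes. With at least 1.5-fold as the limit for the KD response minus the scramble response, 1 of 58 transporter genes was higher, *Slc43a3* at 0.67, and 2 were lower, *Slc6a15* and *Slc7a3* at -1.18, beside 0.994% and 2.25% of all named genes. *Slc7a7* stood just inside the limit at -0.58. *Slc38a2*, at -0.26, differed little between the pairs. Whether *Tet1* and *Tet2* set the *Slc6a15* value was not tested, since 1 array stands for each condition and each line may be its own clone. The scramble and KD arrays at day 2 also differed in naive pluripotency markers, as given above.

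**Figure D3:**
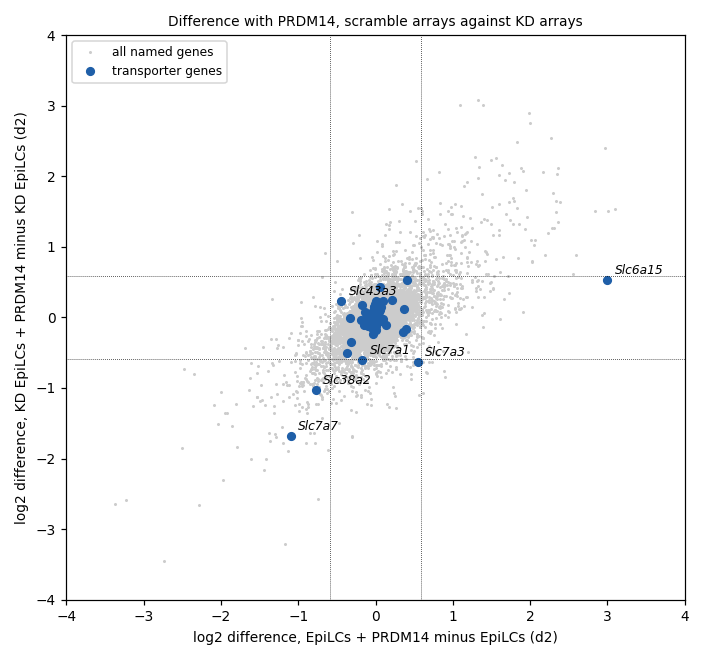
Log2 difference with PRDM14 in the scramble pair (horizontal axis) and in the KD pair (vertical axis) for all 17097 named genes (grey) and the 58 transporter genes (blue); dotted lines mark 1.5-fold. *Slc6a15* lies far to the right, at 3.0 and 0.52, *Slc7a7* and *Slc38a2* lie low in both pairs, and *Slc7a3* and *Slc7a1* lie low in the KD pair alone.

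Between KD and scramble arrays at the same step, differences also spread among dim probe sets: over all named genes below the median signal their SD was 0.286 at day 2 and 0.309 with PRDM14, against 0.178 to 0.223 in the pairs of ESC and scramble arrays. At day 2, 3.3% of all named genes were higher and 2.25% lower in the KD array. Of the transporter genes, 3 were higher, *Slc7a3* by 0.75, the creatine carrier *Slc6a8* by 0.64 and the heavy chain *Slc3a1* by 0.62, and 1 was lower, *Slc1a7* by -0.68. On the deposited values without the median shift, the higher calls were lost (*Slc7a3* 0.53, *Slc6a8* 0.42, *Slc3a1* 0.41) and 6 transporter genes were lower, so the direction of these counts rests on the shift. *Slc3a1* and *Slc1a7* had dim probe sets, with mean signals of 5.04 and 5.48. With PRDM14, 3.58% of all named genes were higher and 3.39% lower in the KD array. Here *Slc6a8* was 0.79, *Slc3a1* 0.75 and the light chain *Slc7a8* 0.71 higher, the last with a mean signal of 3.90, and *Slc6a15* was lower by -2.83, the lowest value of any named gene. Without the shift, none was higher and 8 were lower, *Slc6a15* by -3.05.

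*Slc6a8* and *Slc3a1* passed 1.5-fold at both steps after the shift and at neither step without it, where *Slc6a8* read 0.42 and 0.57 and *Slc3a1* 0.41 and 0.53. *Slc6a8*, the better detected of the pair, read 8.02 in the ESC array, 7.73 at day 2, 7.33 at day 4, 7.54 with PRDM14, and 8.15 and 8.11 in the KD arrays. Its second probe set, at 5.65 to 5.80 in the 6 arrays, showed no such step.

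The genes of the main exchanger of large neutral amino acids differed by less than 1.5-fold in every pair, and were lower with PRDM14. The heavy chain *Slc3a2* read 9.51 in the ESC array, 9.50 at day 2, 9.46 at day 4, 9.17 with PRDM14, and 9.71 and 9.36 in the KD arrays. Its partner *Slc7a5*, the light chain that imports leucine, read 9.77 in the ESC array, 9.76 at day 2, 9.59 at day 4, 9.39 with PRDM14, and 9.73 and 9.22 in the KD arrays. Each was lowest among the arrays of its scale with PRDM14, by 0.32 and 0.37 below EpiLCs (d2) in the scramble pair and by 0.35 and 0.51 in the KD pair, all short of 1.5-fold. Of the other light chains that pair with *Slc3a2*, *Slc7a6* differed by 0.21 and 0.25 in these pairs, and *Slc7a7* by the -1.10 and -1.68 given above.

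*Slc38a4*, an imprinted carrier of neutral amino acids, read 10.62 in the ESC array, 10.29 at day 2, 10.63 at day 4, 10.34 with PRDM14, and 10.26 and 10.70 in the KD arrays. No array stood apart by this probe set. The second probe set of *Slc38a4* read 8.89 in the ESC array, 8.14 at day 2, 8.22 at day 4, 7.91 with PRDM14, and 8.20 and 8.66 in the KD arrays. With the mean of its probe sets, *Slc38a4* passed 1.5-fold in ESCs against EpiLCs + PRDM14 and in KD against scramble with PRDM14. The taurine carrier *Slc6a6* read 8.39 in ESCs and in EpiLCs + PRDM14 and 8.03 in EpiLCs (d2) and EpiLCs (d4), with 8.05 and 7.84 in the KD arrays. ESCs and EpiLCs + PRDM14 formed the higher pair, 0.36 above the rest of their scale, less than 1.5-fold. The second of 4 *Slc6a6* probe sets read 6.64 in the ESC array, 6.38 at day 2, 6.44 at day 4 and 6.94 with PRDM14. There EpiLCs + PRDM14 alone was highest, and the remaining probe sets showed no such step. *Slc43a1*, a carrier of branched-chain amino acids, was likewise highest in EpiLCs + PRDM14, at 7.43, against 7.24 in the ESC array, 7.03 at day 2, 6.89 at day 4, and 6.84 and 6.68 in the KD arrays.

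In the families with dim probe sets, the glutamate carrier *Slc1a1* read 6.45 in the ESC array, 6.09 at day 2, 5.77 at day 4, 6.08 with PRDM14 and 5.53 and 5.71 in the KD arrays. The lysosomal and plasma membrane carrier *Slc36a1* stayed between 5.61 and 5.73 in all 6 arrays. The cystine exchanger *Slc7a11*, a familiar target of ATF4, read 3.97 to 4.06 in the ESC and scramble arrays, near the foot of the scale, so that no level could be compared.

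Genes that work around the carriers were described from 4 lists. The background for their counts is 2.7% of all named genes higher and 2.32% lower in ESCs than in EpiLCs (d2). With PRDM14 against EpiLCs (d2) it is 2.73% and 1.91%. Over all named genes the SD of the ESC differences was 0.394 above the median signal and 0.201 below it. Of 27 genes of the ATF4 and amino acid response, 2 were higher and 2 lower in ESCs than in EpiLCs (d2). The asparagine synthetase *Asns* was 1.08 and the cysteine-forming enzyme *Cth* 1.03 higher, while *Cebpb* and *Ddit4* read -0.67 and -0.62. With PRDM14 none of the 27 passed 1.5-fold against EpiLCs (d2), and the 4 furthest were *Ddit4* at 0.41, *Atf5* at -0.35, *Aldh18a1* at 0.28 and *Eif2ak4* at 0.26.

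Of 30 enzymes of amino acid and one-carbon metabolism, 1 was higher and 3 were lower in ESCs than in EpiLCs (d2). The branched-chain aminotransferase *Bcat1* was 1.01 higher, and *Oat*, *Arg2* and *Odc1*, which lead from arginine and ornithine to glutamate and polyamines, read -1.06, -0.65 and -0.65. With PRDM14, 1 was higher and 1 lower than in EpiLCs (d2): *Arg2*, the mitochondrial arginase, differed by 2.35 and *Tyms* by -0.66, while *Ass1* and *Bcat1* stood at 0.57 and 0.56. *Arg2* read 4.20 in the ESC array, 4.86 at day 2, 6.53 at day 4, 7.20 with PRDM14, and 5.60 and 7.64 in the KD arrays. Its signal was therefore high also at day 4 without PRDM14 and in the KD array, unlike that of *Slc6a15*.

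Of 26 genes by which mTORC1, the kinase complex that couples growth to amino acids, senses its supply, none was higher and 1 was lower in ESCs than in EpiLCs (d2), and 2 were higher and 1 lower with PRDM14. The lower gene in each case was *Rragd*, a Rag GTPase, at -0.85 and -0.81. In the KD pair *Rragd* was not lower with PRDM14, at 0.29. At day 2 it was already lower in the KD array than in the scramble array, at -0.69. *Fnip1* and *Sesn3* were higher with PRDM14, by 0.72 and 0.66, and *Lamtor2* read 0.55. At day 4 without PRDM14, *Fnip1* and *Sesn3* were also higher than at day 2, by 1.08 and 0.90. Against EpiLCs (d4), the array with PRDM14 gave -0.36 for *Fnip1*, -0.24 for *Sesn3* and -1.85 for *Rragd*. In ESCs the next largest differences were 0.48 for *Sesn1*, -0.45 for *Fnip2* and 0.34 for *Nprl2*. Of 19 carriers of other families, the peptide carrier *Slc15a1* was higher in ESCs (1.11) and with PRDM14 (0.94), and the mitochondrial aspartate-glutamate carrier *Slc25a12* was lower in ESCs (-0.97) and read -0.46 with PRDM14. *Slc25a13* and *Slc66a1* read 0.36 and 0.21 in ESCs, and *Slc25a15* and *Slc15a2* read -0.51 and 0.38 with PRDM14.

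**Figure D4:**
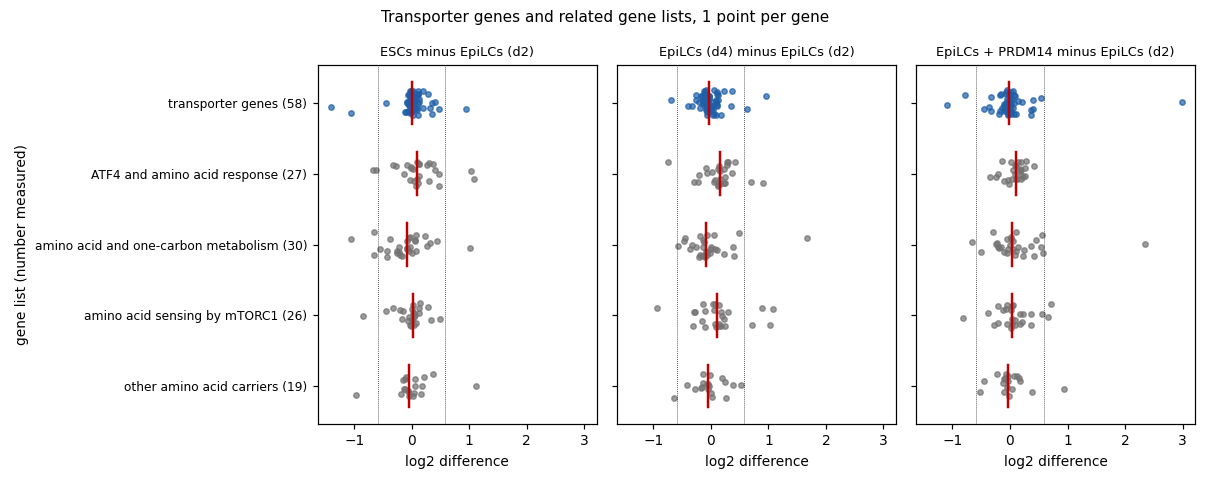
Log2 difference of each gene (points) in the 58 transporter genes (blue) and 4 related lists (grey) for 3 comparisons with EpiLCs (d2); red lines are list medians, dotted lines mark 1.5-fold, and the vertical scatter within a list has no meaning. Medians lie near 0, between -0.09 and 0.15, and *Slc6a15* (3.0) and *Arg2* (2.35) stand out with PRDM14.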

How the data were processed

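Total RNA of the 6 conditions was labelled with the 3′ IVT Express Kit and hybridised to Affymetrix MG-430 PM array strips. The authors normalised the scans by RMA in Expression Console (version not given in the sources used here), and the deposited values are log2 signals for 45141 probe sets. Control probe sets (104), probe sets of several symbols (551) and those named by none (15588) were left out, and 28898 were kept. Names came from GEO's platform annotation, and all 58 genes had a RefSeq entry of the same symbol. Signals were subtracted between arrays in Python 3.11.15 with pandas 2.3.3, and the scripts were tested on simulated data. Array signals give no counts, so the number of arrays limits the precision. Alternatives were a 2-fold limit, the mean or any of a gene's probe sets, a filter on dim probe sets, quantile normalisation of the 6 arrays, and deposited values without the median shift. Values in all arrays are given for genes past 2-fold and for the brightest gene of each family; genes past 1.5-fold are named, and from each related list the 4 furthest genes in 2 comparisons. Others named with values were chosen after these were seen. The genes and lists were chosen with earlier results of these data known.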

Additional observations from a re-analysis of the deposited data

How the results depend on the processing

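No paired analysis was possible because each condition has 1 array, and without any 1 array its comparisons have no value. Of 59 alternative counts, 45 stayed within 1.5 times the count reported and 14 moved. A 2-fold limit left 0 of 58 transporter genes for EpiLCs (d4) against (d2), 1 for EpiLCs + PRDM14 against (d4), 0 for the KD array against the scramble array at day 2, 2 for the KD pair, 1 for KD against scramble with PRDM14 and 2 for ESCs against EpiLCs (d4), the comparison added after the data were seen. Counting any probe set gave 5 for ESCs against EpiLCs (d2), 5 for ESCs against EpiLCs + PRDM14 and 9 for KD against scramble with PRDM14. Averaging probe sets gave 1 for EpiLCs + PRDM14 against (d4), 3 for ESCs against EpiLCs (d4) and 2 for the KD pair, where quantile normalisation also gave 2. Without the median shift, 8 genes passed in KD against scramble with PRDM14 and 6 at day 2, all lower. Of 93 alternatives for single genes, 76 kept their side of the limit, 17 fell inside it and none reversed. The causes were not tested beyond the construction of each alternative.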

Other observations

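*Bckdha*, a subunit of the branched-chain ketoacid dehydrogenase, and *Bcat1* were chosen from the list of metabolic enzymes after their values were seen. *Bckdha* read 7.97 in the ESC array, 7.53 at day 2, 7.20 at day 4, 7.99 with PRDM14, and 7.76 and 7.56 in the KD arrays. *Bcat1* read 10.72 in the ESC array, 9.71 at day 2, 9.64 at day 4, 10.26 with PRDM14, and 9.99 and 10.71 in the KD arrays. With PRDM14 they were 0.78 and 0.63 above day 4, beside 1.88% of all named genes higher by at least 1.5-fold, and 0.46 and 0.56 above day 2, inside that limit.

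*Ass1*, which makes argininosuccinate on the way to arginine, read 7.13 in the ESC array, 7.38 at day 2, 7.01 at day 4, 7.95 with PRDM14, and 6.73 and 7.85 in the KD arrays. Against day 2, PRDM14 went with 0.57 in the scramble pair, just short of 1.5-fold, and with 1.13 in the KD pair. Each value is 1 array, and no difference was tested.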
